A study of Mus musculus with 4 samples.

Results

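The endothelial cells of the mouse epididymis and vas deferens were the cells that the deposited table of cells gave the cell type Endothelial: 50 from the caput, 39 from the corpus, 12 from the cauda and 144 from the vas deferens, together 2.76% of the 8880 cells of the series. All of them were used as labelled. They came from 4 single-cell libraries, 1 each from the caput, corpus and cauda epididymis and the vas deferens of male FVB/NJ mice aged 10 to 12 weeks, untreated and with no allele named in the labels. Each library pooled 8 segments from the same 4 mice, so no library has a replicate, and collagenase and trypsin were used to free the cells. Values are given per library to show how far the libraries differ, not to compare regions.

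Endothelial cells line blood and lymphatic vessels. They seal the vessel wall with adherens and tight junctions, respond to vascular endothelial growth factor (VEGF) and angiopoietins, and receive leukocytes from the blood through selectins and integrin ligands. Arterial endothelium is marked by Notch ligands and Sox17, capillary endothelium by lipid- and water-handling proteins, and venous endothelium, above all that of post-capillary venules, by P- and E-selectin. Lymphatic endothelium is set by the transcription factor Prox1. In the epididymis, vessels lie in the interstitium around the duct.

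A level is the number of unique molecular identifiers (UMIs) that a gene had in all cells of a group, scaled to 1000000 UMIs of that group (UPM). Brackets hold 95% exact Poisson intervals for a level and exact conditional binomial intervals for a ratio of levels, which cover counting error only. The endothelial cells held 835338 UMIs, with a median of 2590 per cell and a range of 239 to 14745. They were set against 6 broad classes made from the deposited cell types: stromal, muscle, immune, basal, clear and principal cells. Because the cells had been clustered on these same counts, every comparison of the class with the rest is a description without a test. A barcode of 3 endothelial cells also occurred in another library.

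The label held for most of the cells but not for all. Of a list of 25 genes expressed across endothelium (pan-endothelial genes), at least 2 were seen in 205 cells and at least 5 in 184, with a median of 40 list UMIs per cell. The other 40 cells had fewer than 2 of these genes, at a median depth of 1516.5 UMIs. Markers of other cell types were concentrated in few cells: 45 cells had 5 or more UMIs of mural, fibroblast, immune, basal, luminal epithelial or red blood cell markers, and 26 of the 40 were among them. Their leading list was the mural one in 16 cells, the fibroblast one in 12, the immune one in 10, the luminal epithelial one in 5 and the basal one in 2. The number of doublets called was set by an assumed rate. Among endothelial cells 5 were called (2.04%, against 2.00% of all cells), 4 of them among these 45. The 45 cells held 21.8% of the endothelial UMIs, and 13 came from the caput, 12 from the corpus, 1 from the cauda and 19 from the vas deferens.

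Those markers as lists give the same picture. The 9 mural markers summed to 577 UPM in endothelial cells against 29138 UPM in muscle cells, with 80.3 to 1942 UPM over the libraries. The 7 fibroblast markers summed to 580.6 UPM (93.7 to 1838 over the libraries) against 9591 UPM in stromal cells. The 9 immune markers, of which Cd3e was at 0, summed to 250.2 UPM (14.1 to 322.5) against 10047 UPM in immune cells, and Ptprc, the common leukocyte antigen, had 4 UMIs. The 4 basal markers summed to 108.9 UPM (0 to 190.6) and the 8 luminal epithelial markers, with Atp6v1b1 at 0, to 198.7 UPM (26.8 to 628.4). The 6 red blood cell genes had 6 UMIs in all, with *Hba-a1*, *Hba-a2* and *Alas2* at 0. Values without the 45 cells are given beside several of the results.

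In the deposited first round of clustering, 239 of the endothelial cells lay in cluster 14, together with 43 T cells and 1 macrophage. The other 6 lay in cluster 16, with macrophages and dendritic cells. The deposited table did not divide the endothelial cells further. The study itself describes endothelial subclusters, a capillary one with arterial markers and others with venous genes. In the latter it found lymphatic cells that did not part from venous ones.

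The 4 genes taken as markers of the class stood out in it in every library. *Tm4sf1*, a tetraspanin-like membrane protein on chromosome 3 (57285611 to 57387736, GRCm38), had 3135 UPM in caput, 7107 in corpus, 4779 in cauda and 9799 in vas deferens endothelial cells. Over all libraries it reached 7690.3 UPM [7503 to 7881], 10.96 times the level in basal cells, the next class. *Pecam1*, the junctional adhesion molecule CD31 (chromosome 11, 106654213 to 106715281), had 550.8, 517.2, 830.0 and 717.0 UPM in the same order. Its level over all libraries was 48.0 times that in immune cells [24.2 to 111.7].

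*Selp*, the P-selectin gene (chromosome 1, 164115264 to 164150026), had 1483, 2805, 1218 and 3642 UPM. It was at 2895 UPM over all libraries [2780 to 3012] and 167.7 times the next class, stromal cells [138.7 to 204.5]. *Icam2*, an integrin ligand (chromosome 11, 106377656 to 106388139), was the weakest of the 4, with 360.1, 115.6, 200.8 and 140.8 UPM and 20.8 times the level of immune cells [8.70 to 64.9]. None of the 4 genes was in every cell: *Tm4sf1* had a UMI in 200 cells, *Pecam1* in 146, *Selp* in 110 and *Icam2* in 73.

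Depth limits these shares, so they were also taken after drawing 1000 UMIs from each cell, which left out 45 shallower endothelial cells. *Tm4sf1* was then seen in 169 of 200 endothelial cells (84.5%), *Selp* in 95 (47.5%), *Pecam1* in 77 (38.5%) and *Icam2* in 33 (16.5%). In principal cells, an epithelium that should lack these genes, the thinned shares were 2.01% for *Tm4sf1*, 0.950% for *Selp*, and 0.0528% for each of *Pecam1* and *Icam2*, over 1894 cells. Before thinning, the median depth was 2590 UMIs in endothelial and 934.5 in principal cells, and the principal shares were 3.36%, 1.69%, 0.253% and 0.152% in the same order. *Tm4sf1* was the least selective marker, since 27.1% of thinned basal cells held it.

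**Figure D1:**
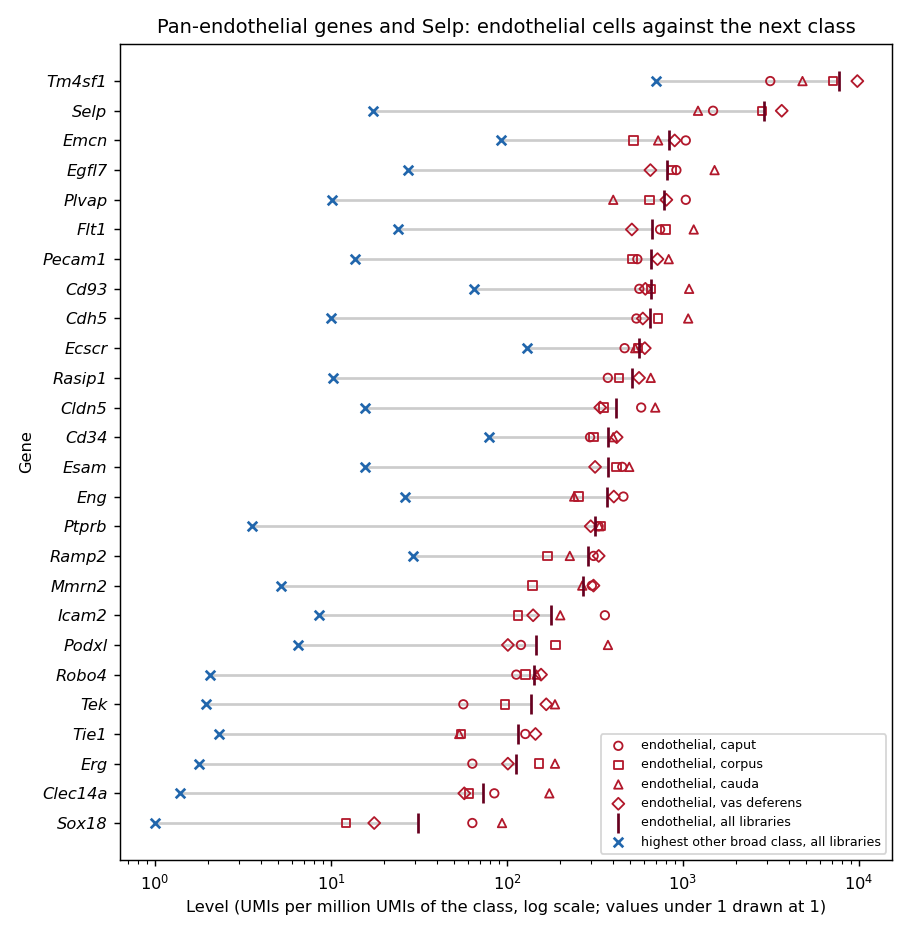
Level of the 25 pan-endothelial genes and *Selp* (rows) in UPM on a log axis. Open symbols are endothelial cells of each library, the vertical bar is all endothelial cells, and the blue cross is the highest of the 6 other classes over all libraries; all 26 genes lie above the cross in each of the 4 libraries.

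A gene was called enriched in endothelial cells at 20 UMIs or more there and at least 4 times the level of the next class, with a class at 0 raised to 3 UMIs. Of 5038 genes with enough UMIs, 183 were called, or 3.63%, and 148 of the 183 were highest in endothelial cells in all 4 libraries. Called genes held 5.06% of the endothelial UMIs. The median ratio over the 5038 genes was 0.667. The next class was most often immune (68 genes), then stromal (45), basal (32), clear (21), muscle (9) and principal (8). For 31 called genes the next class was one at 0, and their ratio is given as a lower limit.

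All 25 pan-endothelial genes were called, and all 25 were highest in endothelial cells in each library. This list was chosen with the class in view, so its count is a description of how clear the class was. Ratios ran from 4.36 for *Ecscr*, an endothelial surface protein, and 4.75 for *Cd34* to 65.1 for *Cdh5*, the VE-cadherin gene, and 76.4 for *Plvap*, the protein of fenestral and caveolar diaphragms. *Cdh5* had 543.7 (caput), 724.1 (corpus), 1071 (cauda) and 591.6 UPM (vas deferens). Beyond the lists, the 10 largest ratios included *Unc45b*, at least 71.8 times the next class, *Rbp7*, a retinol-binding protein (65.9 times), the transcriptional repressor *Bcl6b* (64.6) and the adhesion receptor *Eltd1* (55.9), each highest in endothelial cells in all 4 libraries. Among the called genes with the highest levels were *Tm4sf1*, *Selp*, *Emp1* (1590 UPM) and *Sele*.

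ETS-family transcription factors bind a GGAA core and are known regulators of endothelial genes. Promoter windows from RefSeq (GRCm38.p6, 250 bases before to 50 after a gene's start) were matched for 113 of the 183 called genes. That is fewer than 80%, so a comparison of motif shares is void and was not made. The letters AGGAAG, on either strand, occurred in 35.1% of the windows of all 27025 genes. The 250 bases before the start are shown for 3 of the 4 matched pan-endothelial genes that hold them more than once there, chosen for that reason. Of the 13 matched, 5 hold them once and 4 (*Tek*, *Cldn5*, *Erg* and *Clec14a*) not at all. Starts are those of the RefSeq windows; for *Flt1* and *Emcn* that start lies inside the gene's full RefSeq extent. Capitals mark AGGAAG or its reverse complement CTTCCT.
Egfl7, chr2:26580833-26581082, plus strand: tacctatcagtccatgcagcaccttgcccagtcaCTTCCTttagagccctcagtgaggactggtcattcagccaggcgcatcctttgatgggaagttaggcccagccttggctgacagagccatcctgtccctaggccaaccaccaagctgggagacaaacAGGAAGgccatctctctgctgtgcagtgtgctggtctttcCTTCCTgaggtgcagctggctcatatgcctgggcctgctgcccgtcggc
Emcn, chr3:137340828-137341077, plus strand: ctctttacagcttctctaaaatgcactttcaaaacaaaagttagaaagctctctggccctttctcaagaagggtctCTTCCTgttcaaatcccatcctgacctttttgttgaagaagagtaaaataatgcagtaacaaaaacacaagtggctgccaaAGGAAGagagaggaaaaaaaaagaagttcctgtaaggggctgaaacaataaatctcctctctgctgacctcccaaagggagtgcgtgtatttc
Flt1, chr5:147726012-147726261, minus strand: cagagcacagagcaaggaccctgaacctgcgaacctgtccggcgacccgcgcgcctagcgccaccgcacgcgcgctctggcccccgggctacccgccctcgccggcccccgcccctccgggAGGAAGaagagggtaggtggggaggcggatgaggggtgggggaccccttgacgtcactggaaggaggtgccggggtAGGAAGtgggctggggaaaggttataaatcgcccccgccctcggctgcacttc
A match of 6 letters is a description of the window and does not show that a factor binds there.

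The counts of called genes in the lists that follow stand beside a share of 3.63% over all 5038 measured genes. VEGF and angiopoietin receptors were among the clearest endothelial genes, while the measured ligands of that list, *Vegfa* and *Pgf*, were not. The ligands *Angpt2* and *Vegfc* had under 20 UMIs and were not measured. Of 8 measured VEGF, angiopoietin and neuropilin genes, 4 were called: the VEGF receptors *Flt1* (27.8 times the next class) and *Kdr* (22.1) and the angiopoietin receptor *Tek* (at least 26.5) with its partner *Tie1* (50.2). The co-receptors *Nrp1* and *Nrp2* were at 1.85 and 1.74 times the next class, and the ligand *Vegfa* at 0.253 times the stromal level. Of 9 measured genes of BMP and TGF-beta signalling, the endothelial co-receptor *Eng* (14.1 times) and the receptor *Acvrl1* (6.50) were called. The targets *Id1* and *Id3* were at 0.567 and 0.161 times the next class. In the Notch list, 1 of 6 measured genes was called, the ligand *Dll4* (5.91 times the clear-cell level [3.71 to 9.74]), with the receptor *Notch1* just under at 3.74. The ligand *Jag1* was at 0.305 times the basal level.

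Of 11 measured junction and glycocalyx genes 7 were called, 6 of them also members of the pan-endothelial list. They were *Cdh5*, *Pecam1*, the tight-junction claudin *Cldn5* (26.4 times basal cells), *Esam* (24.2), *Podxl* (22.6), the sialomucin *Emcn* (8.996) and *Jam2* (4.69). The tight-junction scaffold *Tjp1* and *Jam3*, which many tissues express, were at 1.56 and 0.900 times the next class. The connexin *Gja4* was at 2.34 times the stromal level on 43 UMIs, and *Gja5*, a connexin of larger arteries, was at 0 UMIs of 835338.

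Transcription factors were divided. Of 16 measured, 6 were called: the ETS factor *Erg* (at least 54.8 times), the SoxF factors *Sox17* (45.7), *Sox7* (26.2) and *Sox18* (at least 6.04, on 26 UMIs), *Meox1* (16.7) and the ETS factor *Elk3* (5.25). *Fli1* and *Ets1*, which blood cells or epithelium also use, were at 2.63 and 2.86 times the next class. *Klf4*, *Nr2f2* and *Gata2* were at 0.288, 0.245 and 0.230 times the stromal or muscle level.

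Leukocyte adhesion genes were prominent. Of 8 measured, 5 were called: *Selp*, *Sele* (E-selectin), the chemokine-binding receptor *Ackr1*, *Icam2* and *Cd34*. *Sele* had 826.1, 742.3, 267.7 and 1896 UPM in the same order of libraries and 83.7 times the stromal level [68.4 to 103.4]. *Ackr1* was at 20.8 times the stromal level but had UMIs in only 24 cells. *Vcam1*, an integrin ligand, was at 917.0 UPM against 349.0 in stromal cells, and *Icam1* at 0.919 times the stromal level. *Madcam1*, the addressin of gut venules, was at 0.

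Genes of vessel function were enriched in part. For transport, 4 of 9 measured genes were called, the lipase anchor *Gpihbp1* (at least 48.3 times), the drug efflux pump *Abcb1a* (12.0), the water channel *Aqp1* (7.44) and *Slc9a3r2* (6.18). The pump *Abcg2* and the glucose transporter *Slc2a1* were at 0.344 and 0.401 times the next class. For haemostasis, 4 of 11 were called, clotting factor *F8* (16.7), the nitric oxide synthase *Nos3* (at least 16.5), *Vwf* (6.08) and thrombomodulin, *Thbd* (5.24). *Ptgis* and *Plat* were at 0.234 and 0.305 times the stromal level. For vasoactive signals, 4 of 9 were called, *Nos3*, the apelin receptor *Aplnr* (at least 13.4, on 23 UMIs), *Ramp2* (9.81) and the endothelin receptor *Ednrb* (4.42). The peptides *Edn1* and *Adm* were at 2.19 and 0.113 times the basal level. Among 8 genes of caveolae and fenestrae *Plvap* alone was called, and *Cav1* and *Ehd2* were at 0.544 and 0.811 times the muscle level.

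Basement membrane, chemokine and immediate early genes, all expressed in endothelium, held no called gene. Of 12 measured basement membrane genes 10 were below another class, with *Sparc* at 3031 UPM and 0.959 times the stromal level. Of 6 measured chemokine and chemokine receptor genes 4 were below another class: *Cxcl1* was at 3833 UPM and 0.926 times the immune level, and *Ccl2* at 0.221 times the stromal level. Of 16 immediate early and dissociation genes 13 were below another class, and their ratios ran from 0.283 for *Nr4a1* to 1.35 for *Ier3*.

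**Figure D2:**
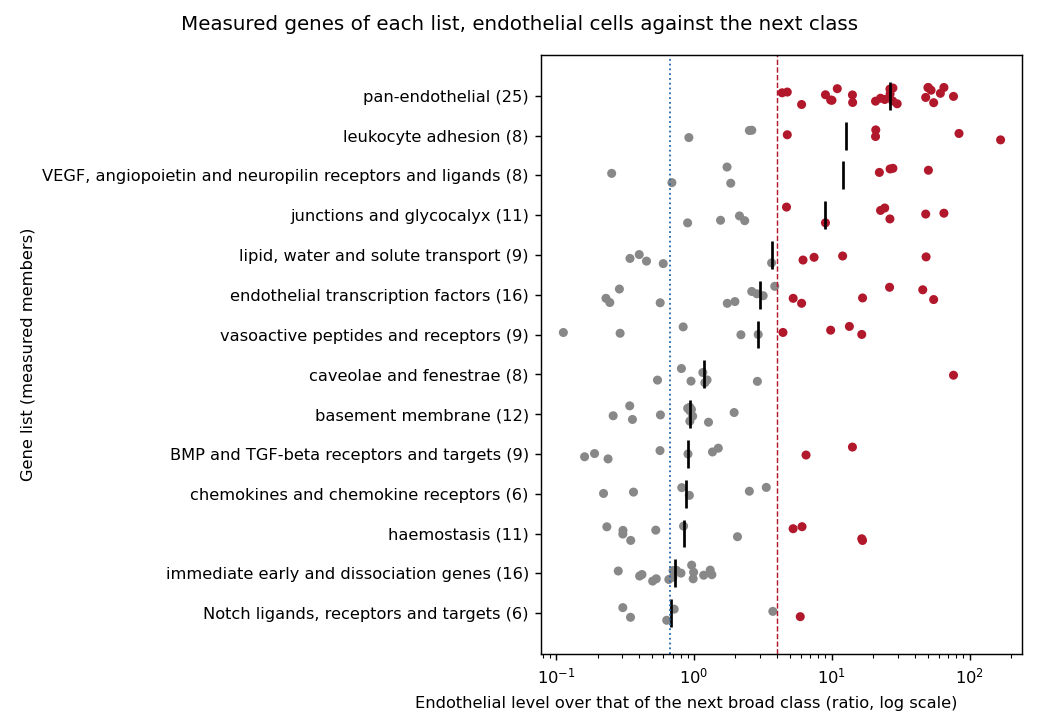
Ratio of the endothelial level to that of the next class (log axis) for each measured gene (point) of 14 lists, called genes in red, with the list's median as a black bar. The dashed line is the ratio of 4 and the dotted line the median of 0.667 over 5038 genes; the pan-endothelial list lies wholly right of the dashed line and the immediate early list wholly left of it.

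Endothelial cells were not uniform, and cells with and without *Selp* differed in several vessel genes. Of the 110 cells with *Selp*, 102 (92.7%) also had *Sele*, against 10 of the 135 without it (7.41%). *Vcam1* was in 81 of the 110 (73.6%) and 12 of the 135 (8.89%). The reverse held for *Sox17*, in 11 of the 110 (10.0%) and 46 of the 135 (34.1%), and for *Gpihbp1*, in 5 (4.55%) and 44 (32.6%). The cells with *Selp* were deeper, at a median of 3055 against 2115 UMIs. With 1000 UMIs from each cell, *Sele* was in 83 of 95 cells with *Selp* (87.4%) and 8 of 105 without (7.62%), *Sox17* in 2 (2.11%) and 25 (23.8%), *Gpihbp1* in 2 (2.11%) and 27 (25.7%), and *Igfbp3* in 10 (10.5%) and 45 (42.9%). *Cldn5* changed order with depth: it was in 43 of the 110 (39.1%) and 46 of the 135 (34.1%) before thinning, and in 18 of the 95 (18.9%) and 31 of the 105 (29.5%) after it. *Selp* was in 7 of 50 caput, 10 of 39 corpus, 2 of 12 cauda and 91 of 144 vas deferens cells.

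The vessel types were then read from 4 lists: arterial (14 genes), capillary (14), venous (11) and lymphatic (10). Each cell's UMIs of a list were divided by those its depth and the list's share of all endothelial UMIs predict, and a cell was given to a list with at least 2 UMIs of it and a ratio 1.5 times that of the next list. UMIs were summed over a list, so its most abundant genes weighed most. *Igfbp3* held 902 of the 1370 arterial-list UMIs, and *Selp* and *Sele* held 2418 and 1121 of the 4955 venous-list UMIs. The venous list led in 72 cells, the capillary list in 41, the arterial list in 30 and the lymphatic list in 22, and 80 cells were not called. These groups are ranges of a score and not cell types, and are named here only by the leading list. Of the called cells, 15 had a leading ratio under 2 times the next: 6 arterial-list, 4 capillary-list, 3 venous-list and 2 lymphatic-list cells. Of the 80, 52 had lists too close to call and 28 had under 2 UMIs of every list. By library (caput, corpus, cauda, vas deferens), venous-list cells numbered 7, 9, 1 and 55, capillary-list cells 18, 4, 5 and 14, and arterial-list cells 8, 9, 2 and 11. Without the vas deferens library 18 venous-list, 26 capillary-list, 19 arterial-list and 7 lymphatic-list cells remained called. The 45 cells with markers of other types made up 9 of the 30 arterial-list, 6 of the 41 capillary-list, 8 of the 72 venous-list and 7 of the 22 lymphatic-list cells.

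**Figure D3:**
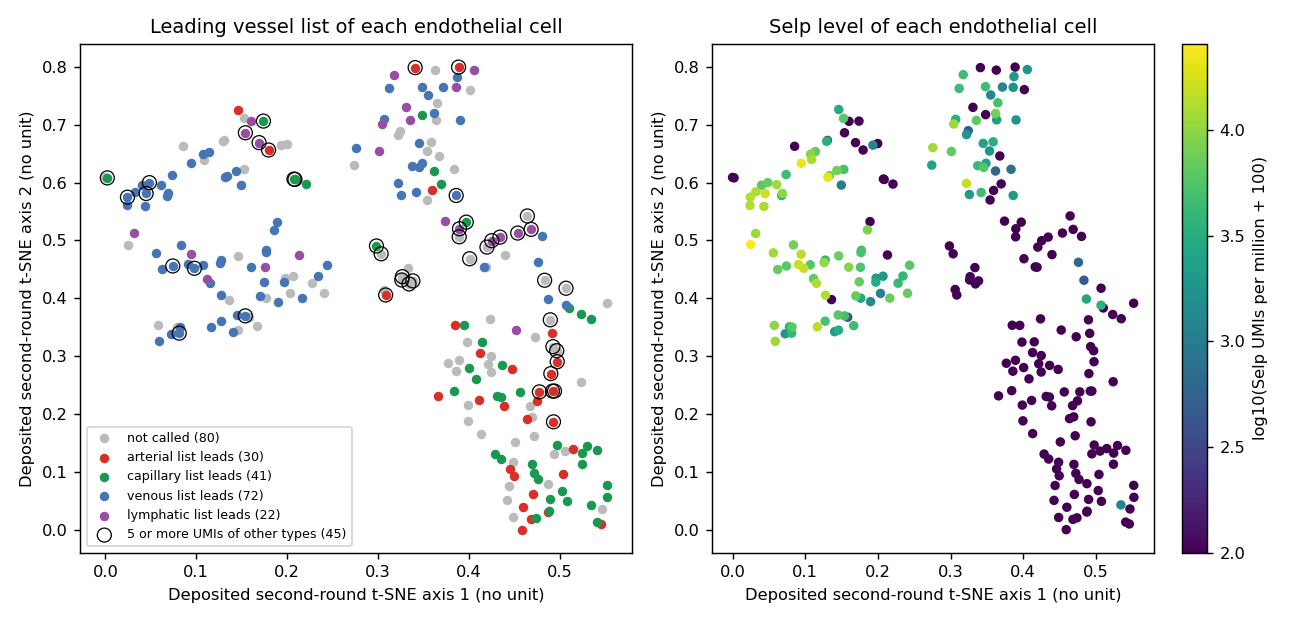
The endothelial cells on the deposited second-round t-SNE axes (no unit). Left, colour is the leading vessel list and rings mark the 45 cells with 5 or more UMIs of other types' markers; right, colour is the *Selp* level per cell as log10 of (UPM + 100). Cells with *Selp* and most of the 72 venous-list cells lie at the left and the top right, while arterial- and capillary-list cells mix at the lower right.

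Genes that the division had not used were then read in the 4 groups. Of 13 genes held out of the lists, 11 had 20 UMIs or more in called cells and 9 of the 11 were highest in the group of their own list. The count is a description, since the study named most of the 11 from these same cells: *Cxcl12*, *Dll4*, *Plk2*, *Ly6a*, *Vcam1*, *Penk*, *Cp* and *Fxyd6*. It listed *Cxcl12* and *Dll4* with capillary vessels and angiogenesis, while here they were counted as arterial genes. Over all measured genes, 27.3% were highest in arterial-list, 23.4% in capillary-list, 22.2% in venous-list and 27.2% in lymphatic-list cells. The chemokine *Cxcl12* was at 649.4 UPM in arterial-list, 385.9 in capillary-list, 3.47 in venous-list and 182.6 in lymphatic-list cells. *Dll4* followed the same order, with 194.1, 132.0, 10.4 and 45.6 UPM. With the 45 cells left out and the rest divided anew, *Cxcl12* was at 810.2, 430.5, 4.14 and 0 UPM and *Dll4* at 259.7, 151.3, 12.4 and 97.9 UPM in the same groups. *Vcam1* was at 1962 UPM in venous-list cells [1804 to 2130] and at 112.0 to 650.5 UPM in the other groups, and *Icam1* at 1484 UPM against 216.5 to 1130 UPM.

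*Nr2f2*, a transcription factor known for setting venous identity, was at 183.7 UPM in venous-list cells [137.6 to 240.3], 136.9 UPM in lymphatic-list cells [70.8 to 239.2], 89.6 UPM in arterial-list cells [46.3 to 156.5] and 30.5 UPM in capillary-list cells [6.28 to 89.0]. It was 2.18 times the level of the other called cells together and higher in 2 of 3 libraries. *Penk* was the exception, at 41.6 UPM in venous-list and 502.1 in lymphatic-list cells. It was at 0.0915 times the stromal level in endothelial cells, and its values without the 45 cells were 45.6 and 19.6 UPM. Of the held-out capillary genes, *Plk2* was highest in arterial-list cells (1135 UPM against 832.7 in capillary-list cells). *Ly6a* and *Aqp1* spanned only 627.7 to 985.0 and 567.3 to 781.9 UPM over the 4 groups.

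Each list gene was also read after a division made without it. Of 22 such genes with enough UMIs, 20 were higher in the group of their own list than in the other called cells together, but 13 were highest there. These counts too are a description. The study named *Sox17*, *Igfbp3*, *Edn1*, *Rgcc*, *Esm1*, *Ly6c1*, *Selp*, *Vwf* and *Slc38a5* from these same cells. No share over all genes was taken for being higher than the other called cells together. *Selp* was at 6217 UPM in venous-list, 2577 in lymphatic-list, 476.1 in capillary-list and 22.4 in arterial-list cells. *Sele* was at 2441, 1724, 306.9 and 59.7 UPM in the same order, and *Ackr1* at 599.7 UPM in venous-list, 159.8 in lymphatic-list cells and at 0 in both capillary- and arterial-list cells. *Vwf*, the large-vessel clotting protein, was at 138.6 UPM in venous-list cells and 7.46 or less in capillary- and arterial-list cells, with 205.4 in lymphatic-list cells. *Slc38a5*, an amino acid transporter of the venous list, was at 0 in venous-list and 445.1 UPM in lymphatic-list cells. Its 56 endothelial UMIs lay in 8 cells, at 0.132 times the principal-cell level, and 44 of them were in the 45 cells with markers of other types. With those cells left out and the gene used in the division, it was at 49.7 UPM in venous-list and 0 in lymphatic-list cells.

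Genes of different lists often lay in the same cells. Of the 97 cells with 2 or more arterial-list UMIs, 81 also had 2 or more capillary-list UMIs and 62 had 2 or more venous-list UMIs. Of the 161 cells with 2 or more venous-list UMIs, 113 had 2 or more capillary-list UMIs. Over all endothelial cells, the capillary list reached this cut in 157 and the venous list in 161. Whether any overlap exceeds what these counts and depth would give was not tested. Read without themselves in the division, the arterial-list genes *Igfbp3*, *Sox17* and *Gja4* were highest in capillary-list cells, at 3311, 317.5 and 178.9 UPM against 1841, 300.2 and 108.3 UPM in arterial-list cells. The intervals overlapped for *Sox17*, with 38 UMIs in each group, and for *Gja4*. Of the *Gja4* UMIs, 23 lay in the 45 cells with markers of other types and 20 in the rest. The capillary-list genes *Gpihbp1* and *Ly6c1* were highest in arterial-list cells, at 693.5 and 1829 UPM against 529.6 and 1400 UPM, also with overlapping intervals. *Ly6c1* shares most of its sequence with *Ly6c2*, so its reads may be split or lost. The arterial-list gene *Edn1*, the endothelin precursor, was at 318.4 UPM in arterial-list and 131.2 in capillary-list cells, and the capillary-list gene *Rgcc*, a regulator of the cell cycle, at 396.0 and 1447 UPM. *Esm1*, known from sprouting vessels, was at 360.1 UPM in capillary-list, 171.7 in arterial-list and 0 in venous- and lymphatic-list cells. *Gja5* had no UMI in endothelial cells and *Hey2*, a Notch target, had 2, too few to place either gene.

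**Figure D4:**
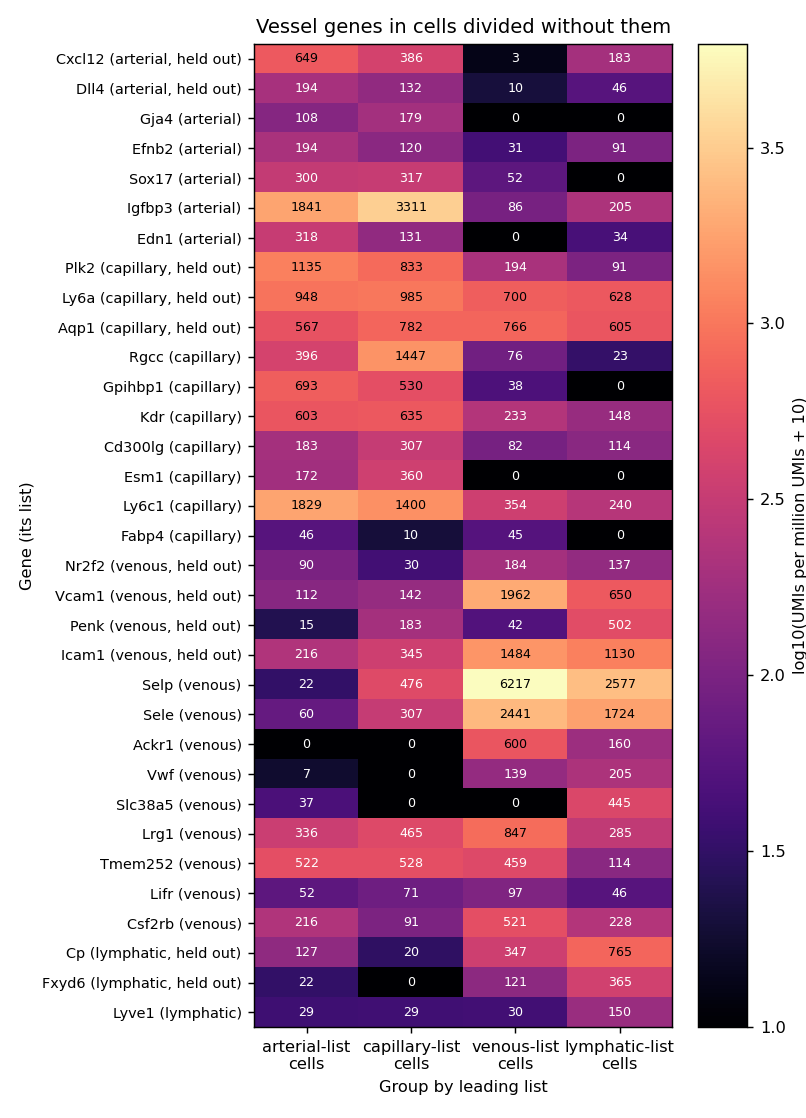
Level of each vessel gene with 20 or more UMIs in called cells (rows, with the list it belongs to) in the 4 groups of cells (columns), printed in UPM and coloured as log10 of UPM plus 10. Every value comes from a division that did not use that gene; *Selp*, *Sele*, *Ackr1* and *Vcam1* are high in the venous-list column and near 0 or low in the arterial-list column, while *Igfbp3*, *Sox17* and *Kdr* are higher in both the arterial- and capillary-list columns than in the venous-list column.

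The 71 arterial- and capillary-list cells were joined and set against the 72 venous-list cells, a grouping chosen after the values above were seen. Of 3572 measured genes outside the lists, 358 (10.0%) were 2 times higher in venous-list cells and 498 (13.9%) 2 times higher in the joined group. In 3 libraries (caput, corpus and vas deferens) there were at least 5 cells of both groups.

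Of 5 leukocyte adhesion genes measured in these cells outside the vessel lists, 2 were 2 times higher in venous-list cells and 1 in the joined group; of 6 chemokine and receptor genes these counts were 2 and 3. *Tm4sf1* was at 12763 UPM there and 4014 in the joined group, 3.18 times [2.96 to 3.42], and higher in 3 of 3 libraries. *Icam1* (5.47 times) and *Vcam1* (15.7 times) were also higher in 3 of 3 libraries. *Csf3*, the granulocyte colony-stimulating factor, was at 2568 UPM against 12.9 UPM and higher in 3 of 3, although 72.01% of its endothelial UMIs came from 10 cells and 568 of 836 from the corpus. *Cxcl10*, an interferon-induced chemokine, was at 797.2 against 150.6 UPM and higher in 2 of 3. The prostaglandin transporter *Slco2a1* was at 266.9 against 34.4 UPM, 7.76 times [3.75 to 18.6], in 3 of 3 libraries, and *Ptgs2*, the inducible cyclo-oxygenase, at 689.8 against 30.1 UPM, also in 3 of 3.

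*Cxcl1*, a neutrophil chemoattractant, was at 6097 UPM in venous-list cells and 2108 in the joined group over all libraries, but at 5096 and 5225 UPM within the vas deferens. Without the 45 cells the joined group had 774 UPM of *Cxcl1*. *Cav1*, the caveolin, was at 925.5 against 550.7 UPM and higher in 3 of 3 libraries.

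In the joined arterial- and capillary-list cells, 4 of 10 measured junction genes and 7 of 25 pan-endothelial genes were 2 times higher than in venous-list cells, against 0 and 1 the other way. *Cldn5*, *Esam* and *Podxl* belong to both lists and count in both. *Rbp7* was at 473.2 UPM in the joined group and 13.9 in venous-list cells, and the co-receptor *Nrp1* at 757.2 and 211.4 UPM, both higher in 3 of 3 libraries. *Cldn5* was 2.53 times higher [1.81 to 3.56], *Podxl* 5.73 times [3.11 to 11.4] and *Abcb1a* 4.11 times [2.71 to 6.46], each in 3 of 3. *Klf2*, a flow-induced factor, was at 942.1 against 405.6 UPM but higher in only 2 of 3. *Egfl7*, often used for all endothelium, was at 1256 against 617.0 UPM in 3 of 3.

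Of 16 immediate early and dissociation genes, 8 were 2 times higher in the joined group and none was 2 times higher in venous-list cells. *Fos* was at 2538 against 370.9 UPM, *Ier2* at 1050 against 149.0, *Dusp1* at 1347 against 263.4 and *Junb* at 4220 against 1383, each in 3 of 3 libraries. The heat-shock gene *Hspa1a* was at 1757 UPM in venous-list cells and 1088 in the joined group, but higher in the joined group in 2 of 3 libraries. Without the 45 cells *Fos* was at 389.6 and 2470 UPM, and 9 of the 16 genes were 2 times higher in the joined group. Mural markers summed to 62.4 UPM in venous-list, 426.5 in capillary-list and 1754 in arterial-list cells, and fibroblast markers to 69.3, 111.7 and 2180 UPM. Their part in these results was not tested.

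With the 45 cells kept, *Cdh5*, *Pecam1*, *Cd93*, *Robo4*, *Sox7* and *Cd34* had ratios near 1, from 0.889 to 1.18, and were named after their values were seen. *Cdh5* was at 665.5 UPM in venous-list and 748.6 in the joined cells, a ratio of 0.889 [0.720 to 1.10]. *Pecam1* was at 689.8 and 770.1 UPM, a ratio of 0.896 [0.728 to 1.10]. Both were higher in venous-list cells in 2 of 3 libraries. Within the vas deferens *Cdh5* was at 557.2 and 605.3 UPM and *Pecam1* at 681.1 and 1147 UPM. Without the 45 cells *Cdh5* was at 688.1 and 944.0 UPM and *Pecam1* at 659.1 and 955.0 UPM, lower in venous-list cells, and no interval was taken. Intervals that hold 1 do not show that the levels are equal.

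The leading genes of the groups outside the lists show how few cells decided some of them. In venous-list cells the 5 largest ratios to the other called cells were *Olr1*, *Crispld1*, *Csf3*, *Gpr126* and *Neurl3*. The last 4 were higher in 3 of 3 libraries, while *Olr1* had 18 of its 26 venous-list UMIs in 1 cell. In capillary-list cells they were *Ccl4*, *Ccl3*, *Lyz2*, *Wfdc17* and *Cd83*, whose next class was immune cells and which had UMIs in 4 to 6 cells each. In arterial-list cells they were *Ndufa4l2*, *Sult1e1*, *C7*, *Col1a2* and *Gpx3*, all but *Ndufa4l2* at a higher level in stromal or principal cells than in endothelial cells. Without the 45 cells, the arterial-list group was led by *Prom1* (10.1 times), *Cxcl12* (8.07), *Rbp7* (5.94), *Nr4a2* (5.76) and *Lxn* (5.68). The venous-list group was then led by *Ptgs2* (42.5), *Gpr126*, *Serpina3n*, *Spint2* and *Csf3* (14.5). The capillary-list group still had *Ccl4*, from 1 cell, and *Ccl3*, from 2 cells, followed by *Col13a1* (14.9), *Ramp3* (7.84) and *Cd24a* (7.80). Of the leaders found without the 45 cells, *Rbp7*, *Lxn*, *Gpr126*, *Csf3* and *Col13a1* were higher in endothelial cells as a whole than in the next class. The others found without the 45 cells were at 0.0154 (*Ccl4*) to 0.816 (*Cxcl12*) times the next class, with *Ptgs2* at 0.239 and *Spint2* at 0.0987 times principal cells. *Ptgs2* had 43 of its 132 venous-list UMIs in 1 cell.

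Lymphatic genes were few. *Lyve1*, a hyaluronan receptor, had 33 UMIs in 16 cells, 15 of them from the vas deferens, and *Prox1* had 14 UMIs in 11 cells, 10 of them from the vas deferens. Only 2 cells had both. *Selp* was in 10 of the 11 cells with *Prox1* and in 100 of the 234 without it. The cells with *Prox1* were deeper, at a median of 5128 against 2507 UMIs, and 91 of all 144 vas deferens cells had *Selp*. The 19 UMIs of *Nts* were in 1 cell. Of the held-out lymphatic genes, *Cp* was at 764.6 UPM in lymphatic-list and 346.6 in venous-list cells and *Fxyd6* at 365.2 and 121.3 UPM. *Thy1* and *Maf* had 8 and 2 UMIs in called cells. The 22 lymphatic-list cells had a median of 15.5 pan-endothelial UMIs and 7 of them had fewer than 2 pan-endothelial genes. The leading genes of the group were *Saa3*, *Defb1*, *Ly6d*, *Apoc1* and *Krt14*, which go against the name. With the 45 cells left out, the group held 16 cells and was led by *Gm10591*, *Igfbp5*, *Fxyd6* (17.1 times), *Ccl7* and *Cp* (4.53 times), of which *Fxyd6* and *Cp* are held-out lymphatic genes. These were read in 1 library with enough cells, the vas deferens, and the group is not named as a lymphatic class.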

How the data were processed

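The 4 libraries were read from the deposited table of counts (16892 genes by 8880 cells) and its table of cells, in which 245 cells carry the label Endothelial. The authors aligned reads to mm10 (the same assembly as GRCm38; HISAT2 2.0.4 is named in the submitters' processing notes), counted UMIs at the 3' end of RefSeq genes with reads of several origins ignored, kept cells within limits of total UMIs and removed an estimate of ambient RNA, so the deposited counts are whole UMIs after that step. It took 3.01% of the UMIs of endothelial cells. The deposited t-SNE axes are a score without a unit and serve only to draw the map. Cell types are the authors' own; the 34 populations were joined into 7 broad classes. No column was left unmatched to a library.

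Sums, ratios, intervals and the division by vessel lists were computed in Python 3.11.15 with numpy 2.4.6, scipy 1.17.1 and pandas 2.3.3. With 1 library a region there is no replicate, no test and no p-value, and intervals and floors (3 UMIs) cover counting error only. Doublets were sought within each library from simulated pairs of cells and kept. The number called (178 of 8880) was set by an assumed rate of 0.8% per 1000 cells. The calculations were tested on simulated data. Genes named are the 4 markers, those the study named for these cells, the 10 largest ratios and 5 highest levels among called genes, the extremes of each list and, per vessel list, the 5 leading genes outside the lists, except 1 gene of high level that is not reported here; other genes of a list were chosen after their values were seen. The members and lists were chosen with earlier results of these data known. Alternatives changed the fold, minimum, classes, depth, cells and libraries; leaving out cells with 5 or more UMIs of other types, or with under 2 pan-endothelial genes, was added for the enriched genes after seeing the data.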

Additional observations from a re-analysis of the deposited data

How the results depend on the processing

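No paired analysis was possible because no result comes from a test and each region is 1 library. The 183 called genes became 371 at a fold of 2 and 89 at a fold of 8, 99 with each cell thinned to 1000 UMIs, of which 97 were among the 183, and 734 against the median of the broad classes. Against the next highest of all other populations 15 genes were called and 8 pan-endothelial genes: small populations at 0 were raised to 3 UMIs, up to 128.4 UPM, and for 146 of the 168 genes lost the next population was at 0. Taking those populations as observed, 75 genes and 20 pan-endothelial genes were at least 4 times every other population. With populations at 0 raised to 3 UMIs, the ratio to the next population was below 1 for *Aplnr* (0.2145), *Btnl9* (0.196), *Clec14a* (0.569), *Dll4* (0.755), *Ednrb* (0.8392), *Erg* (0.8765), *Esm1* (0.8019), *F8* (0.5035), *Lyve1* (0.308), *Meox1* (0.448), *Nos3* (0.662), *Sox18* (0.242), *Thbd* (0.978), *Tie1* (0.9045) and *Vwf* (0.681). With 1 library left out at a time the ratio of *Lyve1* ran from 0.646, without the vas deferens, to 8.74.

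Leaving out 1 library at a time gave 147 to 179 called genes and 23 to 24 pan-endothelial genes, 19 to 29 arterial-list, 26 to 37 capillary-list, 18 to 68 venous-list and 7 to 22 lymphatic-list cells, the low end of each without the vas deferens, except for the pan-endothelial genes, where leaving out the cauda gave 23 as well. The lymphatic-list cells numbered 6 with each cell thinned to 1000 UMIs. Without the 45 cells that hold markers of other types 201 genes were called, 180 of them among the 183, and with only the 205 cells that hold 2 or more pan-endothelial genes 194, 181 of them among the 183. Of the 11 measured held-out genes, 9 were highest in their own group; this was 7 of 11 with no margin, 7 of 10 without the 45 cells, and 6 of 10 without the vas deferens. Depth limits the lists: 6 of 14 arterial, 6 of 14 capillary and 8 of 10 lymphatic genes had under 20 UMIs.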
